A study of Mus musculus with 6 samples.

Results

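The gene Arhgap36 and 9 core genes of the Hedgehog pathway (Shh, Ihh, Dhh, Ptch1, Hhip, Smo, Gli1, Gli2 and Gli3) were examined in bulk RNA sequencing of whole mouse kidney. They were 10 of the 55450 gene rows of the count table and were found by their GENCODE symbols. Arhgap36 was selected on its difference between the groups compared here, and the 9 others were taken for their place in the pathway with the same comparison already known, so their values are given as a description with no p-value, and where the thresholds of the fit are mentioned for them this adds no evidence. Kidneys of male wild-type C57BL/6J mice, 7 weeks old at purchase and acclimated for 1 week, were sequenced from a day-0 and a day-21 group with 3 mice each, out of 6 per group in the study. Day-21 mice had received adenine at 0.16 g/kg with potassium oxonate at 2.4 g/kg by daily gavage, a treatment that raises uric acid and injures the kidney. Day-0 mice were the controls, which the sample labels list as given 20% PEG. In the paper's methods each group was killed on its own day, so by this schedule the day-21 mice were older. Age and days of gavage therefore cannot be told apart from the treatment. Because each library came from a piece of whole tissue, fewer cells of a type and less RNA per cell cannot be told apart.

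Hedgehog ligands are secreted lipid-modified proteins. They bind Patched receptors and so relieve the block that Patched holds on Smoothened, after which Gli transcription factors are spared from processing that begins with phosphorylation by protein kinase A. Ptch1, Hhip and Gli1 are themselves classical targets of the pathway, and in adult kidney Ihh is known from tubular epithelium while Gli1 marks perivascular stromal cells. Arhgap36 belongs by sequence to a family of GTPase-activating proteins and is known for binding and removing the catalytic subunits of protein kinase A, which activates Gli proteins. It is best known from embryonic neural tissue and from endocrine organs such as the adrenal gland.

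The libraries held 10963849 to 14333311 counts assigned to genes. TMM scaling factors lay between 0.852 and 0.886 on day 0 and between 1.12 and 1.17 on day 21, and mitochondrially encoded genes took 9.39% to 9.86% of day-0 counts and 3.82% to 4.42% of day-21 counts. Of 16592 genes tested with edgeR's quasi-likelihood test, 5821 or 35.1% met both thresholds (adjusted p below 0.05 and more than 1.5-fold), with 3249 higher (19.6%) and 2572 lower (15.5%) on day 21. Scaling by library size alone turned this split into 5985 higher and 1338 lower and shifted the median over all genes from 0.03 to 0.42 on the log2 scale. The 3 day-21 mice did not overlap the 3 day-0 mice in 9467 genes, or 57.1% of those tested. The label of kidney was checked with 7 proximal tubule markers, of which Slc34a1 and Lrp2 were the most abundant. Their summed level in CPM (counts per 1000000 counts of the scaled library) was 10070 to 11140 on day 0 and 1842 to 2273 CPM on day 21, and all 7 fell.

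Of the 10 genes, 6 were abundant enough to enter the fit and 4 (Shh, Dhh, Gli2 and Hhip) were not. Relative to day 0, 4 of them passed the thresholds upwards (Arhgap36, Gli1, Gli3 and Ihh) and 1 downwards (Ptch1), and Smo passed neither. These counts are set beside the 19.6% and 15.5% of all genes only for scale, since the genes were chosen with this comparison known. The day-0 and day-21 mice did not overlap in 6 of the 6 fitted genes, beside 57.1% of all tested genes, nor in Hhip, and nothing is read from this for the same reason.

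**Figure D1:**
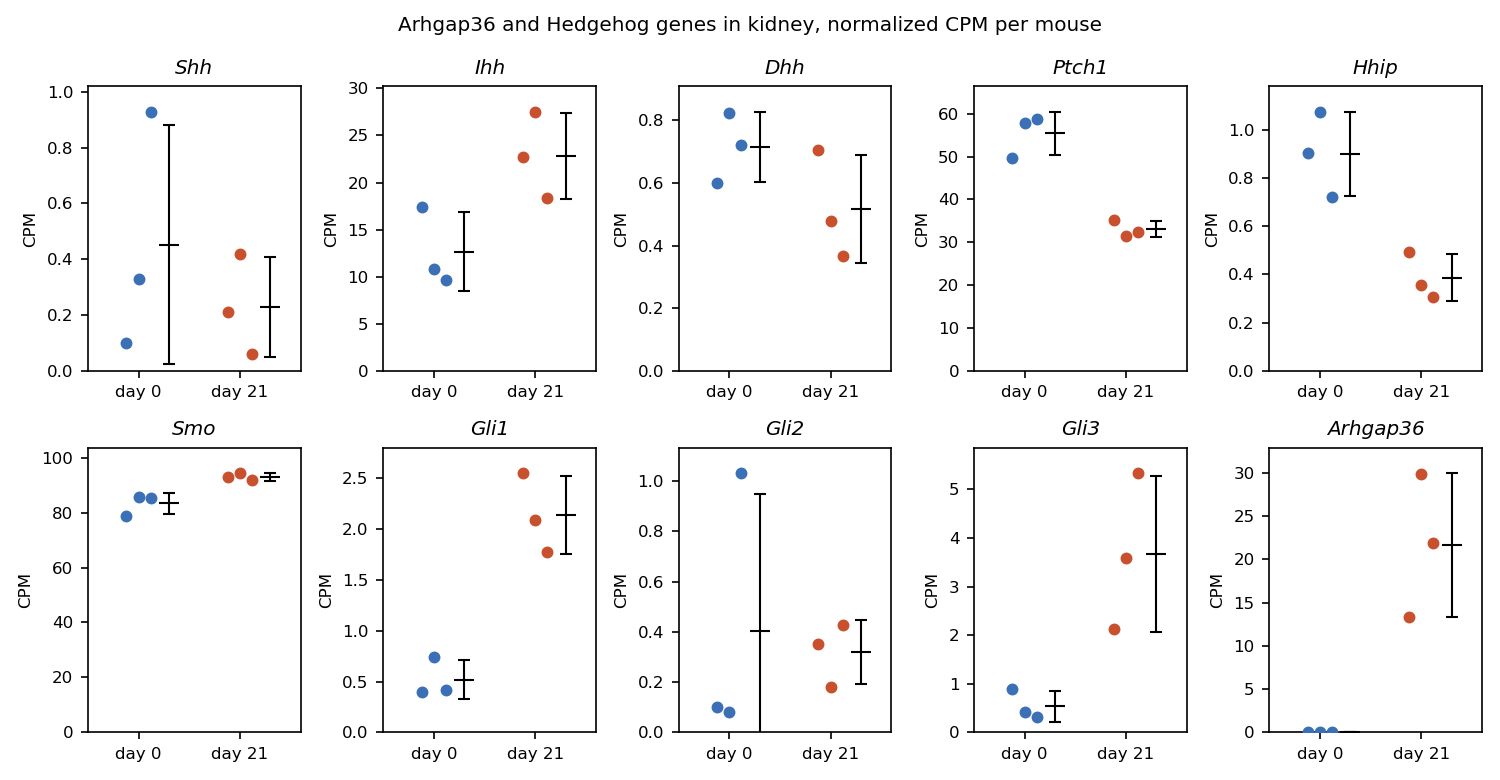
Level of each of the 10 genes in each mouse, in TMM-normalized CPM on separate linear vertical axes. Points are mice, horizontal marks the group mean and error bars the SD of 3 mice, cut at 0. Arhgap36 stands at 0 in all day-0 mice and between 13.3 and 29.8 CPM on day 21, while Ptch1 is lower on day 21 and the Shh, Dhh and Gli2 groups overlap.

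The upstream sequences of Arhgap36 and of Ihh, the most abundant ligand, are shown because both genes stood higher on day 21, from no count on day 0 for Arhgap36 and from counts in every mouse for Ihh. They are the 250 bases before the annotated start in RefSeq (GRCm38.p6), written 5′ to 3′ on the gene's strand, with each CG pair in capitals. Arhgap36 has 2 annotated starts, and both coincide with starts of protein-coding transcripts in the GENCODE annotation. The first window lies at chrX:49463695-49463944 and the second at chrX:49470200-49470449, both on the plus strand, and the Ihh window lies at chr1:74951673-74951922 on the minus strand.
Arhgap36 first start: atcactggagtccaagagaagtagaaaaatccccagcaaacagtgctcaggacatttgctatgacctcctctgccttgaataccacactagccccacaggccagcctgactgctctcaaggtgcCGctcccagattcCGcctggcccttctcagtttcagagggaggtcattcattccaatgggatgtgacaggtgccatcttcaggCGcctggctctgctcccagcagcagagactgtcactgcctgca
Arhgap36 second start: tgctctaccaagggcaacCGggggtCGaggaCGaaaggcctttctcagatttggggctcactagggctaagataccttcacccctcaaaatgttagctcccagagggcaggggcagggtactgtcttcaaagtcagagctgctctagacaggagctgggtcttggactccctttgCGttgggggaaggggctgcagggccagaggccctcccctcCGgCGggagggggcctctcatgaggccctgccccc
Ihh: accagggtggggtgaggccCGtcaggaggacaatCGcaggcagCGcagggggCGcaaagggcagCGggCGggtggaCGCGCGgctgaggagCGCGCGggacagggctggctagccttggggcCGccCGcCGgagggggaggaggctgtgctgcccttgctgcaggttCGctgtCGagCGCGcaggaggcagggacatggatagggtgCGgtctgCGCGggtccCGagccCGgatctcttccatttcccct
The Arhgap36 windows held 3 and 6 CG pairs and the Ihh window held 24. Over all 32851 RefSeq windows the median was 6 CG pairs, with quartiles of 2 and 16. As few pairs as in the first Arhgap36 window or fewer were found in 37.8% of all windows, and 53.7% had no more than the second, whereas 89.3% had no more than Ihh. Ptch1 had 41, and 99.1% of windows had no more. CG pairs were counted after the sequences had been seen and no methylation was measured.

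The Gli binding motif GACCACCCA was also searched, on both strands (the other strand reads TGGGTGGTC), from 250 bases before to 50 bases after each start. RefSeq windows were held for 8 of the 10 genes (9 windows, Gli1 and Shh not included). The starts used for Smo and Gli3 lay 197 and 257 bases from the nearest protein-coding start in GENCODE. All 250 bases before the Gli3 start were annotated as exon, so that window is not upstream sequence. None of the 9 windows had the motif, exactly or with 1 mismatch, where 0.253% of all windows held an exact match and 6.74% a match with at most 1 mismatch. These letters are absent from these windows, which says nothing about binding elsewhere.

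Of the ligands, Ihh (Indian hedgehog; ENSMUSG00000006538.12, chr1:74945315-74951672, minus strand, GRCm38) was counted 174, 131 and 94 times in the 3 mice of day 0 and 321, 461 and 300 times in those of day 21. Its normalized level was 17.4, 10.8 and 9.69 CPM on day 0 and 22.7, 27.5 and 18.4 CPM on day 21. Every day-21 mouse stood above every day-0 mouse, although the highest day-0 mouse was close to the lowest day-21 mouse. The mean level went from 12.6 ± 4.20 to 22.9 ± 4.57 CPM (SD, n = 3), a log2 fold change of 0.86 with a standard error of 0.23. Leaving out replicate 2 of day 0 gave 0.75 and leaving out replicate 2 of day 21 gave 0.70, and in either case Ihh no longer passed the thresholds.

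Shh (Sonic hedgehog; ENSMUSG00000002633.4, chr5:28456815-28467256, minus strand) had 1, 4 and 9 counts at day 0 against 3, 7 and 1 at day 21. Dhh (Desert hedgehog; ENSMUSG00000023000.5, chr15:98891152-98898540, minus strand) had 6, 10 and 7 counts at day 0 against 10, 8 and 6 at day 21. The groups overlapped for both ligands, and no difference was detectable at this depth. Per length of exon, Ihh made up 86.6% to 98.3% of the 3 ligands' summed level in each of the 6 mice. The few Dhh and Shh counts are uncertain because 12.4% of Dhh's exon bases are shared with Rhebl1 on the same strand and 25.2% with the antisense gene Gm49442, and 15.7% of Shh's with the antisense gene 9530036O11Rik. Whether the authors' counting used strand is not known.

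Ptch1 (ENSMUSG00000021466.12, chr13:63508328-63573598, minus strand), the receptor that restrains Smoothened, had 496, 701 and 571 counts at day 0 against 498, 528 and 531 at day 21. After normalization these were 49.7, 57.8 and 58.9 CPM on day 0 and 35.2, 31.5 and 32.5 CPM on day 21. All day-21 mice lay below all day-0 mice on the normalized scale, while the unscaled counts of the groups overlapped. The mean fell from 55.5 ± 4.98 to 33.1 ± 1.91 CPM (SD, n = 3), 1.68-fold, with a log2 fold change of -0.75 and a standard error of 0.12. With library size alone the log2 fold change was -0.36, which did not pass the fold threshold. Relative to the median of all genes, which a scaling moves along with every gene, it was -0.78.

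Hhip (ENSMUSG00000064325.4, chr8:79965851-80058006, minus strand), a membrane protein that binds Hedgehog ligands and holds them back, had 9, 13 and 7 counts at day 0 against 7, 6 and 5 at day 21. Its normalized level was 0.902, 1.07 and 0.721 CPM on day 0 and 0.495, 0.358 and 0.306 CPM on day 21. The groups did not overlap after normalization, but the gene was too rare to enter the fit.

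Smo (ENSMUSG00000001761.7, chr6:29735503-29761365, plus strand) encodes Smoothened, the transducer at the membrane of the primary cilium. It had 786, 1041 and 828 counts at day 0 against 1314, 1580 and 1497 at day 21, or 78.8, 85.8 and 85.3 CPM against 92.9, 94.3 and 91.7 CPM. The day-21 mice lay slightly above the day-0 mice without overlap. The log2 fold change of 0.16 with a standard error of 0.10 did not pass the thresholds, and relative to the median of all genes it was 0.13.

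Gli1 (ENSMUSG00000025407.7, chr10:127329882-127341974, minus strand), an activating transcription factor of the pathway and one of its targets, had 4, 9 and 4 counts at day 0 against 36, 35 and 29 at day 21. In normalized terms this was 0.401, 0.742 and 0.412 CPM on day 0 and 2.55, 2.09 and 1.78 CPM on day 21. The groups were well apart, at a low level in both. The mean level was 0.518 ± 0.194 and 2.14 ± 0.387 CPM (SD, n = 3), 3.98-fold higher on day 21, with a log2 fold change of 1.99 and a standard error of 0.43. Gli1 shares 62 of its 4995 exon bases with Arhgap9 on the other strand and 265 with the antisense gene Gm47200. Arhgap9, described with its family, was also higher on day 21, and Gm47200 had 1, 0 and 0 counts at day 0 against 10, 3 and 2 at day 21, so some Gli1 counts could belong to either if strand was not used.

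Gli3 (ENSMUSG00000021318.15, chr13:15463235-15730026, plus strand), which is processed to the main repressor of the pathway when ligand is absent, had 9, 5 and 3 counts at day 0 against 30, 60 and 87 at day 21. Its level was 0.902, 0.412 and 0.309 CPM on day 0 and 2.12, 3.58 and 5.33 CPM on day 21. The day-21 mice differed among themselves more than for Gli1, yet all stood above day 0. The mean rose from 0.541 ± 0.317 to 3.68 ± 1.61 CPM (SD, n = 3), 6.77-fold, with a log2 fold change of 2.76 and a standard error of 0.51. Gli2 (ENSMUSG00000048402.14, chr1:118834132-119053619, minus strand), the other main activator, had 1, 1 and 10 counts at day 0 against 5, 3 and 7 at day 21. Its groups overlapped and it was not tested. Most of its day-0 counts came from 1 mouse.

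Arhgap36 (ENSMUSG00000036198.12, chrX:49463945-49500244, plus strand) had 0 counts in each of the 3 day-0 mice. In the day-21 mice it had 188, 500 and 357 counts, a normalized level of 13.3, 29.8 and 21.9 CPM and a mean of 21.7 ± 8.27 CPM (SD, n = 3). No mouse of one group came near the other group. A count of 0 allows up to 3 counts per library, or 0.179 to 0.309 CPM over the 6 libraries, for counting error only, and against that limit in the day-0 libraries Arhgap36 was at least 75.8-fold higher on day 21. No annotated gene shares its exon bases.

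Compared per kilobase of exon, the order of the 10 genes differed between the groups. On day 0 Smo stood highest at 14.8 CPM per kb, followed by Ihh at 4.15 and Ptch1 at 3.91, whose mice overlapped. Dhh, Shh, Gli1, Hhip, Gli2 and Gli3 came next between 0.0564 and 0.163 CPM per kb, each overlapping its neighbour in that order. Arhgap36 had no count, and its limit of 3 counts lies within the range of those 6 genes. On day 21 Smo was again highest at 16.5 CPM per kb. Ihh at 7.5 ± 1.5 and Arhgap36 at 6.33 ± 2.42 CPM per kb (SD, n = 3) overlapped in the next places, above Ptch1 at 2.33. Gli1 at 0.428 and Gli3 at 0.383 CPM per kb overlapped each other and stood above Dhh, Shh, Gli2 and Hhip, which lay between 0.0426 and 0.118. Levels per kb use the summed length of all annotated exons and would shift with the transcripts in use.

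**Figure D2:**
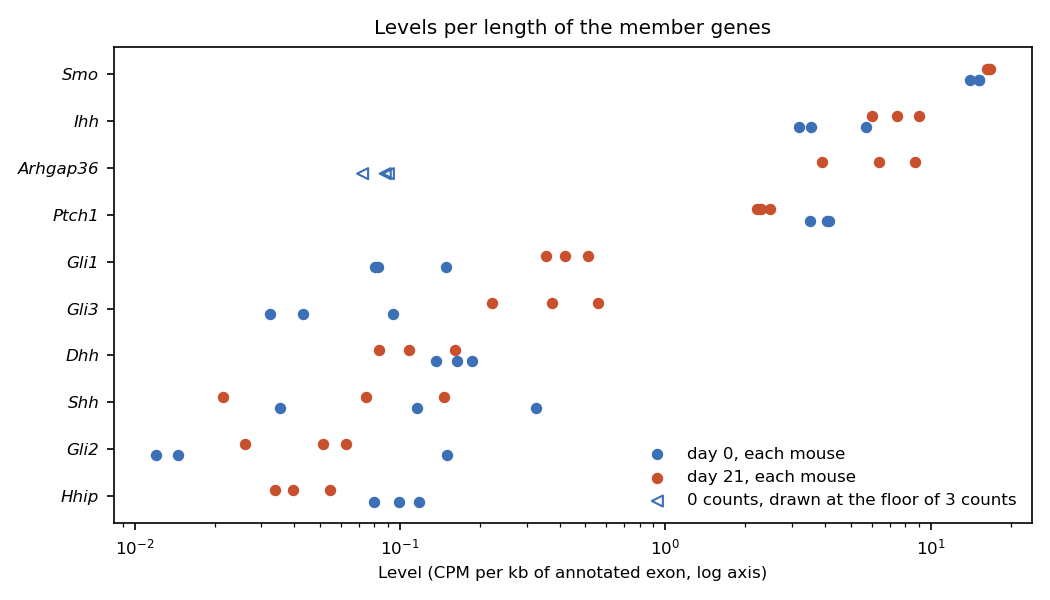
Levels of the 10 genes on day 0 and day 21 in CPM per kilobase of exon, on a logarithmic axis. Filled points are mice, and open triangles stand for the day-0 mice with 0 Arhgap36 counts, drawn at the limit of 3 counts. On day 21 Arhgap36 overlaps Ihh (means of 6.33 and 7.50 CPM per kb), and Smo is highest on both days at 14.8 and 16.5 CPM per kb.

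Beyond these genes, 69 further genes of the pathway were listed by role. Of the 65 that could be tested, 10 rose and 2 fell, 18.5% against 35.1% of all genes, and their median log2 fold change was 0.11 against 0.03 over all genes. Scaling by library size alone called 28 of them (27 higher and 1 lower), and leaving out replicate 3 of day 21 called 7.

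Among 7 genes of ligand acylation and release, 5 were tested, 1 rose and 1 fell, 40.0% beside 35.1% of all genes. Their median log2 fold change was 0.54. Scube1, of the family of secreted proteins that help to release lipid-modified ligand, had 2.11, 1.07 and 3.92 CPM on day 0 and 17.9, 7.70 and 21.2 CPM on day 21. It rose by a log2 fold change of 2.75 (SE 0.47, adjusted p = 0.00087). Hhatl, a relative of the ligand acyltransferase Hhat, had 11.8, 13.7 and 8.76 CPM on day 0 and 5.23, 4.47 and 3.12 CPM on day 21, and its log2 fold change was -1.42 (SE 0.26, adjusted p = 0.0012). The groups of both genes stood apart.

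Of the co-receptors, which help ligand to reach its receptor, Cdon had 91, 100 and 134 counts at day 0 against 205, 262 and 258 at day 21. Its log2 fold change was 0.56 (SE 0.20, adjusted p = 0.044). Gas1 had 279, 438 and 393 counts at day 0 against 391, 437 and 387 at day 21, with a log2 fold change of -0.43 (SE 0.15, adjusted p = 0.039). Both differed by less than 1.5-fold and were not called. Boc had a log2 fold change of -0.33 (SE 0.20, adjusted p = 0.21) and its groups overlapped. All 3 were named after their values were seen.

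Of 17 cytoplasmic and ciliary regulators, 4 rose and 1 fell past both thresholds, 29.4% beside 35.1% of all genes. The median log2 fold change was -0.13. At adjusted p below 0.05 and any fold there were 9. These added Spop (-0.40, adjusted p = 0.0098), Cul3 (-0.45, adjusted p = 0.012) and Gsk3b (-0.29, adjusted p = 0.036) as lower. Grk2 was added as higher (0.29, adjusted p = 0.038), and all 4 were named after their values were seen. Gpr161, a ciliary receptor that keeps protein kinase A active and the pathway low, had 1.40, 0.659 and 1.13 CPM on day 0 and 5.58, 5.25 and 5.57 CPM on day 21. It rose by a log2 fold change of 2.37 (SE 0.33, adjusted p = 0.00023) with little spread on day 21. Kif7, a ciliary kinesin that organizes Gli and Sufu, rose by 1.62 on the log2 scale (SE 0.48, adjusted p = 0.018). Efcab7, which anchors the Evc complex, rose by 1.36 (SE 0.44, adjusted p = 0.028), and so did Iqce, its partner, by 1.01 (SE 0.15, adjusted p = 0.00042), named after its value was seen. Both Kif7 and Efcab7 were rare, at 0.401 to 2.68 CPM on day 0. Each lost its call without replicate 1 of day 0 or replicate 2 or 3 of day 21, and Efcab7 also without replicate 2 of day 0, with adjusted p up to 0.087 for Kif7 and 0.11 for Efcab7. Evc, a partner of Smoothened at the base of the cilium, had 286, 357 and 317 CPM on day 0 and 175, 172 and 183 CPM on day 21. It fell by 0.86 on the log2 scale (SE 0.11, adjusted p = 0.00018), a call not made with library size alone, where the value was -0.47. Sufu, the main cytoplasmic restraint on Gli proteins, had 46.0, 60.3 and 64.6 CPM on day 0 and 43.4, 48.7 and 38.4 CPM on day 21. The groups overlapped, and its log2 fold change was -0.39 (SE 0.15, adjusted p = 0.054).

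Protein kinase A, the enzyme that Arhgap36 binds, was represented by 9 genes of its subunits and inhibitors. Past both thresholds 1 rose and none fell, 11.1% beside 35.1% of all genes, and the median log2 fold change was 0.02. Prkar2a, a regulatory subunit named after its value was seen, had 102, 82.3 and 85.2 CPM on day 0. On day 21 it had 65.7, 56.0 and 65.2 CPM, a log2 fold change of -0.53 (SE 0.12, adjusted p = 0.0053). That is less than 1.5-fold, so it was not called. Prkaca, which encodes the main catalytic subunit, had 59.4, 70.4 and 61.9 CPM on day 0 and 62.8, 60.4 and 62.2 CPM on day 21. Its groups overlapped, with a log2 fold change of -0.05 (SE 0.11, adjusted p = 0.74) that changed sign with upper quartile scaling (0.04) and with library size alone (0.34). The gene that rose was Pkib, an inhibitor of the catalytic subunit, with 16, 15 and 7 counts at day 0 against 31, 54 and 39 at day 21. Its log2 fold change of 1.12 (SE 0.39, adjusted p = 0.037) passed in 6 of 13 alternatives, and the adjusted p ranged from 0.0079 to 0.14 over them. The call was lost with DESeq2 and on leaving out replicate 2 or 3 of day 0 or any of the day-21 mice, where the log2 fold change was 0.86 to 1.23.

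No gene of the 20 for transport along the cilium, where the pathway runs, passed both thresholds in edgeR, beside 35.1% of all genes. At an unadjusted p under 0.05 there were 6, and neither DESeq2 nor limma-voom called any. At adjusted p below 0.05 and any fold there were 2. These were Dync2li1 (log2 fold change 0.513, adjusted p = 0.0085) and Ift122 (-0.335, adjusted p = 0.028), both less than 1.5-fold and named after their values were seen. Over all 20 genes the log2 fold changes lay between -0.38 and 0.51, with a median of 0.16.

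Of 12 genes reported elsewhere as Gli targets, 10 were tested, 4 rose and none fell, 40.0% beside 35.1% of all genes, with a median log2 fold change of 0.55. Many of them answer to other signals too. Ccne1, the cyclin that drives entry into DNA synthesis, had 3, 4 and 1 counts at day 0 against 30, 46 and 36 at day 21. Its groups were far apart and it rose by a log2 fold change of 3.19 (SE 0.48, adjusted p = 0.0004). Mycn, a growth-promoting transcription factor, had 1.71, 2.39 and 2.58 CPM on day 0 and 2.97, 7.46 and 6.25 CPM on day 21 and rose by 1.32 (SE 0.37, adjusted p = 0.015). Igfbp6, which binds insulin-like growth factor, rose by 1.18 (SE 0.38, adjusted p = 0.027), and Bcl2, which blocks apoptosis, by 0.63 (SE 0.13, adjusted p = 0.0034), the latter named after its value was seen. The Mycn call was lost without replicate 2 or 3 of day 21 (adjusted p up to 0.069), and the Igfbp6 call without replicate 2 or 3 of either day (adjusted p up to 0.11).

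**Figure D3:**
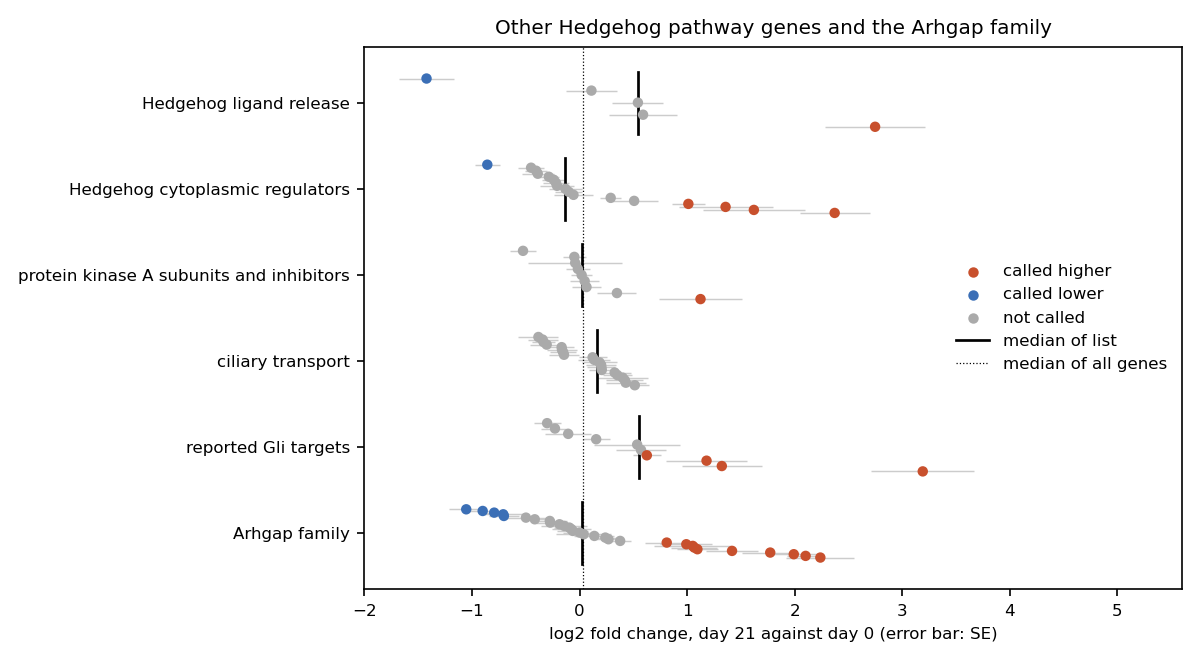
Log2 fold changes, day 21 against day 0, of the tested genes in 5 lists of the Hedgehog pathway and in the Arhgap family, with horizontal bars for the SE. Vertical bars are list medians and the dotted line is the median of all genes (0.03). Genes not called are grey, with Ccne1 (3.19), Scube1 (2.75) and Gpr161 (2.37) farthest to the right and Hhatl (-1.42) farthest to the left.

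The Arhgap family, which shares with Arhgap36 the domain that in most members speeds GTP hydrolysis by small GTPases, was taken as the protein-coding genes named Arhgap with a number and held 33 other identifiers, Arhgap26 having 2. Of 30 tested, 10 rose and 5 fell, 50.0% beside 35.1% of all genes, with a median log2 fold change of 0.02. The largest rises were those of Arhgap9 (1.10, 2.47 and 2.78 CPM on day 0, 10.7, 11.3 and 8.15 CPM on day 21), with a log2 fold change of 2.24 (SE 0.32, adjusted p = 0.00027), and of Arhgap30 with 2.10 (SE 0.18, adjusted p = 1e-05), both known from blood cells. Arhgap19, known from dividing cells, rose by 1.99 (SE 0.22, adjusted p = 4.8e-05). Summed macrophage markers were 126 to 153 CPM on day 0 and 597 to 703 CPM on day 21, with 6 of 6 genes higher. The part of these cells in the rise of Arhgap9 and Arhgap30 was not tested. Arhgap32 fell by 1.05 on the log2 scale (SE 0.16, adjusted p = 0.00048), Arhgap10 by 0.90 (SE 0.14, adjusted p = 0.0006) and Arhgap42 by 0.79 (SE 0.11, adjusted p = 0.00021). The calls of Arhgap10 and Arhgap42 were not made with library size alone, where the values were -0.51 and -0.41. Arhgap6, a close relative of Arhgap36, had 17.4, 13.1 and 15.7 CPM on day 0 and 13.5, 12.7 and 11.9 CPM on day 21, with a log2 fold change of -0.28 (SE 0.16, adjusted p = 0.19). By level per kb Arhgap36 shared the last place of these 34 identifiers in each day-0 mouse and ranked 13, 6 and 10 in the 3 day-21 mice.

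On the X chromosome 13 other annotated genes lay within 500 kb of Arhgap36, and 10 of them had no count in any mouse. Enox2, 175.7 kb away, had 15.5, 16.7 and 15.3 CPM on day 0 and 20.2, 17.3 and 18.0 CPM on day 21, a log2 fold change of 0.22 (SE 0.14, adjusted p = 0.22). Igsf1, a membrane glycoprotein known from the pituitary and 282.3 kb away, had 0 counts in every day-0 mouse and 6, 8 and 10 counts on day 21, at least 1.77-fold higher. It stood above 0 on day 21 like Arhgap36, but was too rare to be tested. Gm14719, 160.7 kb away, had 9, 18 and 3 counts at day 0 against 11, 17 and 24 at day 21, which overlapped. Of the 2 neighbours tested, 0 passed with edgeR, DESeq2 or limma-voom, and 0 had an unadjusted p under 0.05.

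The genes whose pattern over the 6 mice was most like that of Arhgap36 were found among 11888 protein-coding genes by the root mean square difference of centred log2 levels. This was 0.184 for Mmp7, a matrix metalloproteinase of injured epithelium, which had 0 counts in all day-0 mice and 179, 469 and 249 on day 21. Serpina10, a protease inhibitor of coagulation, followed at 0.511, with 12, 6 and 11 counts at day 0 against 1510, 1858 and 1735 at day 21. Cxcl5, a neutrophil-attracting chemokine, came next at 0.542 and had 0 counts at day 0 against 119, 215 and 154 at day 21. Sprr2f, a protein of the squamous epithelial envelope, at 0.556, had 1, 0 and 0 counts at day 0 against 330, 273 and 420 at day 21. Ltbp2, a matrix protein of the latent TGF-β binding family, at 0.566, had 4, 3 and 2 counts at day 0 against 277, 660 and 460 at day 21. Each of the 5 had at most 1.20 CPM in any day-0 mouse. Mmp7, Cxcl5 and Ltbp2 shared with Arhgap36 the order of the day-21 mice, highest in replicate 2 and lowest in replicate 1. The 5 were picked for closeness over these same mice, so nothing is read from the shared order. Mmp7 and Cxcl5 reached the required mean of at least 50 counts through day 21 alone. The next gene stood at 0.602, so the later places are close to each other. The median of all candidates was 3.56, but Arhgap36 had been selected on its difference between the groups. The measure spans both groups and so mostly reflects the rise between them, and nothing is read from the distance to that median. Serpina10 was nearly flat over the day-21 mice at 107, 111 and 106 CPM, where Arhgap36 had 13.3, 29.8 and 21.9 CPM.

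**Figure D4:**
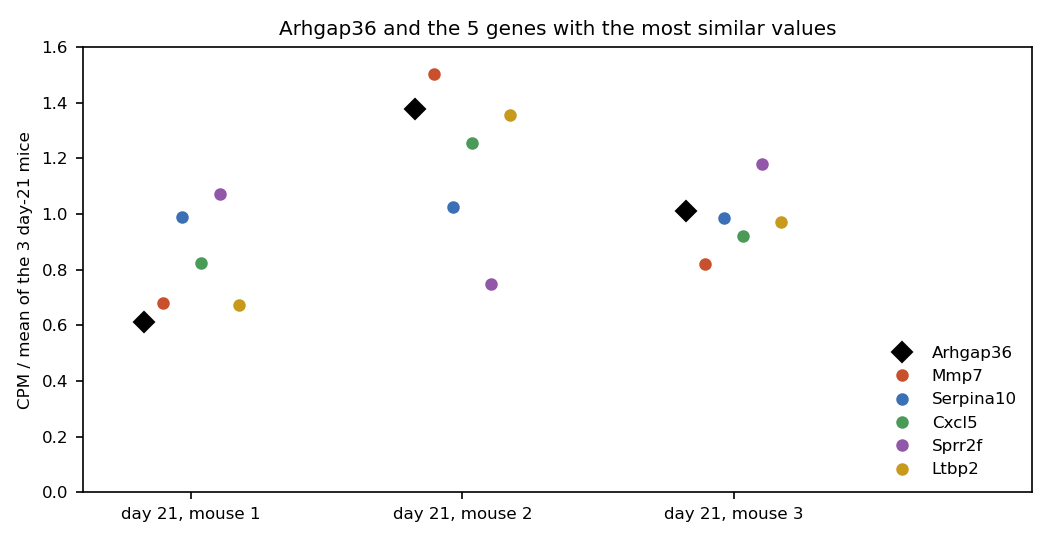
CPM of Arhgap36 (diamonds) and of the 5 genes whose pattern was most like it (points) in the 3 day-21 mice, each divided by its own mean over those mice, on a linear axis from 0. Arhgap36, Mmp7, Cxcl5 and Ltbp2 are highest in mouse 2 and lowest in mouse 1, and Sprr2f is lowest in mouse 2, where it had 273 counts. The 5 genes were picked for closeness over these same mice, so nothing is read from the shared order.

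The markers of cells that could carry these genes moved between the groups as well. Stromal markers (9 genes of fibroblasts and pericytes, Col3a1 and Col1a2 with the highest means over the 6 mice) rose in 9 of 9 cases, with a summed level of 225 to 360 CPM on day 0 and 1184 to 2199 CPM on day 21. Per 1000 CPM of that sum, Gli1 was 1.63, 3.30 and 1.15 CPM on day 0 and 1.24, 1.76 and 0.808 CPM on day 21, and the groups overlapped. Gli3 was 3.66, 1.83 and 0.859 on day 0 and 1.03, 3.02 and 2.42 on day 21 by the same measure, and overlapped too. The make-up of that sum differed between the days. Per 1000 CPM of the pericyte and fibroblast receptor gene Pdgfrb alone, chosen after the values were seen, Gli1 was 8.42, 17.1 and 9.66 on day 0 and 22.4, 22.1 and 16.5 on day 21, and Gli3 was 18.9, 9.52 and 7.25 on day 0 and 18.7, 37.9 and 49.6 on day 21. By this measure each gene had 1 day-21 mouse below its highest day-0 mouse. The part of stromal cell number in the rise of Gli1 and Gli3 was not tested.

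**Figure D5:**
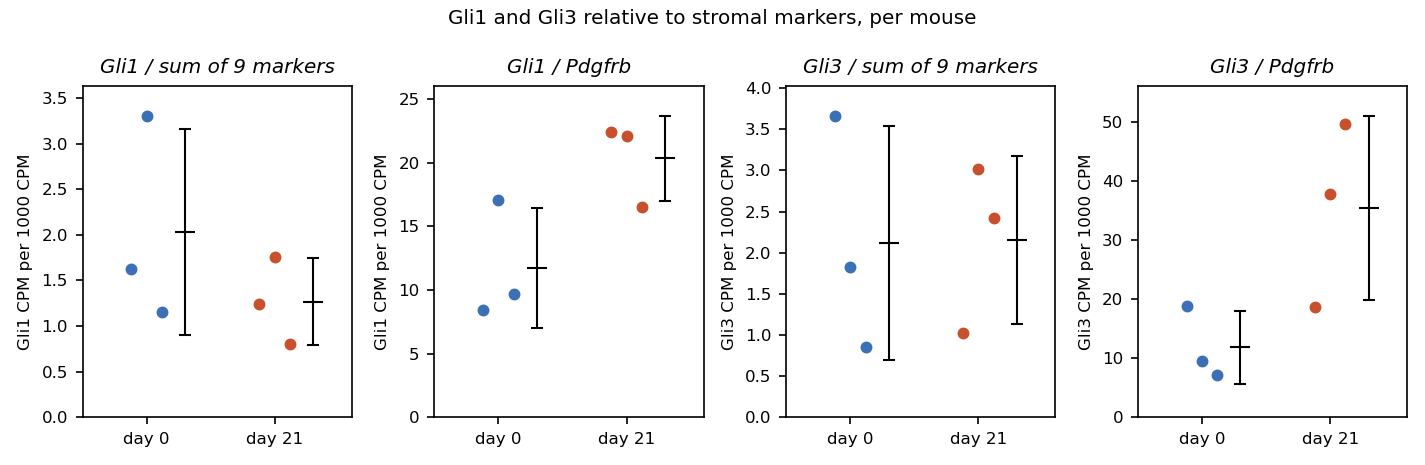
Gli1 and Gli3 per 1000 CPM of summed fibroblast and pericyte markers and of Pdgfrb alone, by mouse, on linear axes from 0, with the mean and SD of 3 mice beside the points. The groups overlap for the marker sum (Gli1 1.15 to 3.30 on day 0 and 0.808 to 1.76 on day 21), and for Pdgfrb the day-21 mice lie mostly higher.

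Injured tubule markers (Havcr1 and Krt8 with the highest means over the 6 mice) rose in 5 of 5 cases, with a sum of 167 to 251 CPM on day 0, most of it Krt8, and 2372 to 2647 CPM on day 21. Arhgap36 per 1000 CPM of that sum was 5.02, 12.6 and 8.92 on day 21. Ihh per 1000 CPM of the proximal tubule sum was 1.73, 0.970 and 0.915 on day 0 and 9.98, 14.9 and 8.84 on day 21, a wider gap than in its own level since the denominator fell. Which cells held either gene was not tested.

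Adjacent tissue was looked for because Arhgap36 is known from the adrenal gland. All 7 markers of adrenal medulla and neuroendocrine cells had at most 3 counts in every mouse, and Th, Dbh and Pnmt, which make catecholamines, had 0. Of 8 adrenal cortex markers, 5 had at most 3 counts in every mouse, and Cyp11b2, Nr5a1 and Hsd3b1 had 0. Cyp21a1 had 0, 0 and 0 counts at day 0 against 0, 9 and 2 at day 21, and Mc2r had 1, 7 and 1 against 12, 6 and 9. The summed cortex level was 2.78 to 4.41 CPM on day 0 and 2.97 to 4.29 CPM on day 21, most of it Star, the only marker of the list that could be tested (log2 fold change -0.33, adjusted p = 0.45). Urothelial markers summed to 7.02 to 32.1 CPM on day 0 and 9.25 to 15.7 CPM on day 21, and 1 of 7 fell. Schwann cell and nerve markers, 3 of 6 tested, summed to 12.4 to 22.8 CPM on day 0 and 35.0 to 36.6 CPM on day 21, with Mbp higher. The part of any of these cells in the rise of Arhgap36 was not tested.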

How the data were processed

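Whole-kidney RNA was sequenced as paired-end TruSeq libraries, and the authors deposited a table of raw read counts per Ensembl gene (unit: counts, not normalized) for 6 mice. The submitters' processing notes name TopHat and mm10, without versions, and the counting program and its strand setting are not given in the sources used here. All 55450 identifiers were matched to GENCODE M21 (GRCm38), and 28536 had no count in any mouse. Samples were grouped by their labels, control (day 0) or day 21, and the 3 samples per group are labelled as separate replicates. Where nothing more is said of their source, p-values measure only the spread between these samples. No 2 libraries were alike within counting noise (mean chi-square per gene of 6.78 to 23.6 within groups).

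Counts were filtered with filterByExpr (16592 genes kept), scaled by TMM and tested with the quasi-likelihood F-test of edgeR 4.0.16 in R 4.3.3, day 21 against day 0, with Benjamini-Hochberg adjustment over all genes tested. Genes were called at adjusted p below 0.05 when they also differed more than 1.5-fold. CPM use the scaled library sizes, SD is over 3 mice, and limits from a count of 0 (3 counts) cover counting error only. Alternatives were RLE, upper quartile and no scaling, no filter, a mean of at least 50 counts, DESeq2 1.42.0, limma-voom (limma 3.58.1), a replicate block, each mouse left out, and other thresholds. Tables were made with Python 3.11.15. The 10 genes, the lists and the alternatives were chosen with earlier results of these data known. Named genes of each list were up to 3 called with the largest rise and up to 3 with the largest fall, plus Sufu, Prkaca and Arhgap6 (other genes the rule named are not reported here), neighbours of Arhgap36 with a count, the 5 genes most like it (prior count 2, mean of at least 50 counts), and the 2 most abundant genes of marker lists. Further marker lists gave these summed CPM ratios of day 21 to day 0: collecting duct 0.69 (3 of 8 lower), smooth muscle 1.37, endothelium 0.726 and podocyte 0.608.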

Additional observations from a re-analysis of the deposited data

How the results depend on the processing

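Over the refits the log2 fold change of Gli1 ranged from 1.82 to 2.38, that of Gli3 from 2.39 to 3.28, Ihh from 0.69 to 1.25, Ptch1 from -0.84 to -0.36 and Smo from 0.10 to 0.55. The 5 member calls became 3 with a mean of at least 50 counts, which drops Gli1 and Gli3, and 3 at stricter thresholds (adjusted p below 0.01, more than 2-fold). Leaving out 1 mouse gave 4 to 5 member calls, 7 to 14 other pathway calls, 0 to 1 protein kinase A calls, 13 to 15 Arhgap family calls, 0 to 0 calls beside Arhgap36 and 5128 to 5920 calls over all genes. The 12 other pathway calls became 28 with library size alone, 7 with a mean of at least 50 counts, 5 at these stricter thresholds and 21 at any fold. The 1 protein kinase A call became 2 with library size alone, 2 at any fold and 0 with a mean of at least 50 counts, with DESeq2, with the replicate block and at the stricter thresholds. The stricter thresholds gave 8 Arhgap family calls in place of 15 and 3172 calls over all genes. Beside Arhgap36, 1 gene was called with library size alone (Enox2) and 1 without a filter (Igsf1). The sign changed with library size alone for Arhgap6 (0.11), Sufu (0.002) and Prkaca (0.342), and for Prkaca also with upper quartile scaling (0.037). With 1 mouse left out Prkaca ranged from -0.122 to 0.026 and Gm14719 from -0.162 to 0.835. None of these 4 genes was called. Apart from fewer genes or mice and from the scaling itself, the cause was not tested.

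Deviations of same-numbered mice correlated by -0.019, 0.165 and 0.0896 across genes, and those of differently numbered mice by -0.181 to 0.116. With 3 mice per group these values cannot settle whether replicate numbers pair the mice. Not every mouse correlated best with its own number. A replicate block gave 5 member calls, 12 other pathway calls, 15 Arhgap family calls, 0 calls beside Arhgap36 and 5758 calls over all genes, and it ended the calls of Pkib and Igfbp6. Genes with a few counts per library, such as Shh, Dhh, Gli2 and Hhip, are limited by depth.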
